A study of Mus musculus with 18 samples.

Results

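Metastasis-associated macrophages (MAMs) are the macrophages that gather in and around tumor deposits seeded in another organ, here deposits of MC38 cells in the mouse liver. They were split at sorting by the amount of the surface protein F4/80 into F4/80hi and F4/80int MAMs, and the transcriptomes of these subsets were compared in 6 of the 18 RNA-seq libraries of the study, 3 of each subset. The members were all 13759 genes of the MAM count table. The question asked of the comparison was how the subsets differ in maturity and in the chemokines, cytokines and TGF-β regulators that act on natural killer (NK) cells.

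All libraries came from female C57BL/6J mice of 8 to 10 weeks. MC38, a colon adenocarcinoma line of the same strain, was injected into the spleen, the spleen was then removed, and livers were taken 20 days later. Meloxicam (Metacam) was given as pain relief over 3 days, and no other treatment is stated for these mice. Metastases were excised and digested with Liberase TL and DNase I. After enrichment of CD45+ cells, live lineage-negative CD45+CD11b+ cells were sorted as F4/80high (F4/80hi MAMs) or F4/80low (F4/80int MAMs), with a stated purity above 95%. The labels do not say whether the 3 libraries of a subset came from separate mice or pools, so p-values measure the spread between these libraries, which may be technical. Which antibodies made up the lineage stain of the macrophage sort is not given in the sources used here, and CD11b and F4/80 are also found on monocytes and on some dendritic cells (DCs).

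Monocytes that enter an inflamed or tumor-bearing tissue lose Ly6C and CCR2 as they turn into macrophages and gain complement, scavenger and lysosomal genes. In the liver, resident macrophages, the Kupffer cells, are a separate lineage that carries CLEC4F and TIM-4. DCs, which can share CD11b with these cells, are known for MHC class II, FLT3 and ZBTB46, and mature DCs for CCR7, CCL17 and CCL22. Macrophage TGF-β1 is made in a latent form, and integrins and proteases release it.

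The libraries held 21278959 to 32267015 counts, and 13022 to 13373 genes had at least 10 counts in each. Mitochondrially encoded genes took 1.48% to 1.73% of the counts in F4/80hi and 1.04% to 1.21% in F4/80int libraries. Spearman correlations over all genes were 0.989 to 0.992 within a subset and 0.925 to 0.942 between subsets, and the first principal component, with 78.2% of the variance, separated the subsets. No 2 libraries of a subset agreed within counting noise, with a chi-square of 22.9 to 47 per degree of freedom. In the following, levels are CPM, counts scaled to library size with TMM factors, listed in the order of replicates 1, 2 and 3. A log2 fold change is positive where F4/80hi MAMs were higher and is given ± its standard error (SE). A gene was called where the quasi-likelihood test of edgeR gave it a Benjamini-Hochberg adjusted p under 0.1.

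The sort genes followed the labels. *Adgre1*, which encodes F4/80, was at 901, 806 and 1167 CPM in F4/80hi and 124, 160.4 and 153 CPM in F4/80int libraries (log2 fold change 2.71 ± 0.17, adjusted p = 8.63e-06). The subsets did not overlap, which the sort itself selects for. *Itgam*, the gene of CD11b, was at 1256, 1194 and 1712 CPM in F4/80hi and 1115, 1162 and 1569 CPM in F4/80int libraries (log2 fold change 0.11 ± 0.18, adjusted p = 0.632), and its ranges overlapped. *Ptprc*, the gene of CD45, was lower in F4/80hi MAMs, at 521, 442 and 581 CPM against 958, 996 and 915 CPM (log2 fold change -0.89 ± 0.11, adjusted p = 0.000389). The 12 markers of macrophages and monocytes in general summed to 13159 to 18391 CPM in F4/80hi and 12153 to 15209 CPM in F4/80int libraries. Among them *Lyz2*, the lysozyme gene of myeloid cells, was at 6282, 5359 and 7623 CPM in F4/80hi and 4609, 5055 and 6258 CPM in F4/80int libraries (log2 fold change 0.27 ± 0.16, adjusted p = 0.205), and was called without F4/80hi replicate 2 (adjusted p = 0.0884) or F4/80int replicate 3 (0.0853). By these genes both subsets carried the RNA of macrophages and monocytes.

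F4/80hi and F4/80int MAMs differed in 7555 of 13759 genes, 54.9% of those tested. Of these, 3821 genes (27.8% of all tested) were higher and 3734 (27.1%) were lower in F4/80hi MAMs. A change of at least 2-fold was seen for 1523 higher genes (11.1%) and 1507 lower genes (11.0%). For 8035 genes (58.4%) the 3 values of one subset lay entirely above or below those of the other. The median log2 fold change over all genes was 0.014. Counts of called members in the gene groups below, and statements that the subsets did not overlap, are read against these shares. More than 1 in 2 genes were called, and more than 1 in 2 did not overlap.

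**Figure D1:**
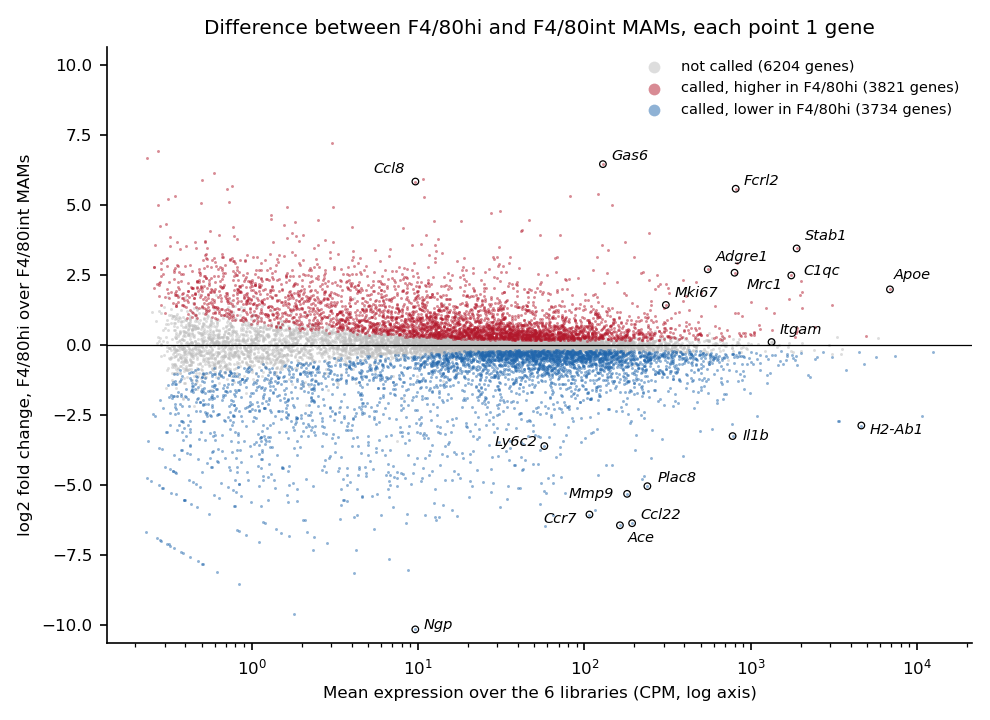
Log2 fold change of each of the 13759 genes between F4/80hi and F4/80int MAMs (vertical axis, positive where F4/80hi was higher) against its mean expression over the 6 libraries (horizontal axis, CPM, log scale). Red points are called higher, blue points called lower and gray points not called, with named genes circled. *Gas6* and *Fcrl2* stand at the top, *Ngp* at the bottom, *Itgam* close to 0 and *H2-Ab1* far to the right at -2.87.

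Of the 10 widest differences in favor of F4/80hi MAMs, 6 are given with the values of every library. *Gas6* (ENSMUSG00000031451.7, chromosome 8, 13515371 to 13544824 on GRCm39), the ligand that bridges dying cells to the receptors Axl and MerTK, was at 242, 222 and 303 CPM in F4/80hi and 2.13, 2.15 and 4.54 CPM in F4/80int libraries (log2 fold change 6.47 ± 0.29, adjusted p = 2.74e-06). *Fcrl2* (ENSMUSG00000015852.14, chromosome 3, 87156616 to 87181827 on GRCm39), which RefSeq names *Fcrls* and which encodes an Fc receptor-like scavenger molecule, was at 1537, 1424 and 1815 CPM in F4/80hi and 31.5, 28.6 and 39.0 CPM in F4/80int libraries (log2 fold change 5.59 ± 0.17, adjusted p = 1.6e-06). Every F4/80hi library was thus more than 30 times above every F4/80int library for both genes. *Slco2b1*, an organic anion transporter, was at 217, 167 and 328 CPM in F4/80hi and 4.99, 5.77 and 6.27 CPM in F4/80int libraries (log2 fold change 5.39 ± 0.27, adjusted p = 4.17e-06). *Cbr2*, a carbonyl reductase, was at 166, 119 and 196 CPM in F4/80hi and 3.15, 2.83 and 6.10 CPM in F4/80int libraries (log2 fold change 5.34 ± 0.32, adjusted p = 7.51e-06). *Ccl8*, a chemokine of the monocyte chemoattractant family, was at 20.2, 11.6 and 25.1 CPM in F4/80hi and 0.525, 0.137 and 0.303 CPM in F4/80int libraries (log2 fold change 5.85 ± 0.45, adjusted p = 2.69e-05), a change that became 6.45 without F4/80int replicate 1. *Cp*, the copper-carrying ferroxidase ceruloplasmin, was at 52.7, 38.6 and 87.9 CPM in F4/80hi and 2.07, 2.01 and 2.42 CPM in F4/80int libraries (log2 fold change 4.79 ± 0.33, adjusted p = 1.42e-05). No value of these 6 genes overlapped between subsets, but only genes without overlap entered this ranking. Of all genes tested, 58.4% did not overlap. The other 4 of the 10 widest were *Col14a1* (collagen XIV) with a log2 fold change of 5.02, *Gal3st4* (a sulfotransferase) with 5.92, *Tpbgl* with 5.31 and *Sorbs3* (an adaptor of the cytoskeleton) with 4.73. *Gal3st4* moved to 6.63 without F4/80int replicate 1, in which it was at 0.591 CPM. Markers of fibroblasts and stellate cells, to which *Col14a1* could also belong, were higher in F4/80hi libraries as well and are given below.

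The 10 widest differences in the other direction included *Ace*, *Ccl22* and *Ccl17*. *Ace* (ENSMUSG00000020681.15, chromosome 11, 105858469 to 105880790 on GRCm39), the angiotensin-converting enzyme, which nonclassical monocytes carry, was at 3.96, 5.00 and 2.30 CPM in F4/80hi and 243, 298 and 430.0 CPM in F4/80int libraries (log2 fold change -6.44 ± 0.33, adjusted p = 4.18e-06). *Ccl22* (ENSMUSG00000031779.4, chromosome 8, 95471226 to 95478327 on GRCm39) was at 4.95, 4.00 and 4.99 CPM in F4/80hi and 511, 352 and 285 CPM in F4/80int libraries (log2 fold change -6.36 ± 0.26, adjusted p = 1.81e-06), and *Ccl17* (ENSMUSG00000031780.3, chromosome 8, 95534358 to 95538664 on GRCm39) was at 1.22, 1.67 and 1.04 CPM in F4/80hi and 148, 112 and 83.7 CPM in F4/80int libraries (log2 fold change -6.45 ± 0.28, adjusted p = 2.05e-06). Both encode ligands of the receptor CCR4 and are counted among the mature DC markers here, though which cells made them was not tested. In bulk libraries, fewer cells of a type and less of its RNA per cell cannot be told apart. *Serpinb10*, a serine protease inhibitor, was at 3 counts or fewer in every F4/80hi library and at 18.3, 11.1 and 22.6 CPM in F4/80int libraries, which is at least 154-fold lower in F4/80hi MAMs against a floor of 3 counts per library (0.113 CPM). *Ngp*, a neutrophil granule protein, was at 51.4, 1.298 and 5.06 CPM in F4/80int libraries and at 3 counts or fewer in every F4/80hi library, at least 171-fold lower. That value rests on F4/80int replicate 1: the fitted log2 fold change was -10.16 with it and -7.54 without it, and -12.1 without F4/80hi replicate 1. The remaining genes of the 10 widest were *S100a9* at -7.65, *Lad1* at -6.55, *Ngfr* (the low-affinity nerve growth factor receptor) at -6.37, *Ramp3* (a partner of calcitonin-family receptors) at -6.24 and *Adam23* at -6.16. *S100a9*, at 0.225, 0 and 0 CPM against 32.8, 1.91 and 5.41 CPM, depended on single libraries, with -5.75 without F4/80int replicate 1 and -11.6 without F4/80hi replicate 1, and *Lad1* moved to -7.47 without F4/80hi replicate 2.

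**Figure D2:**
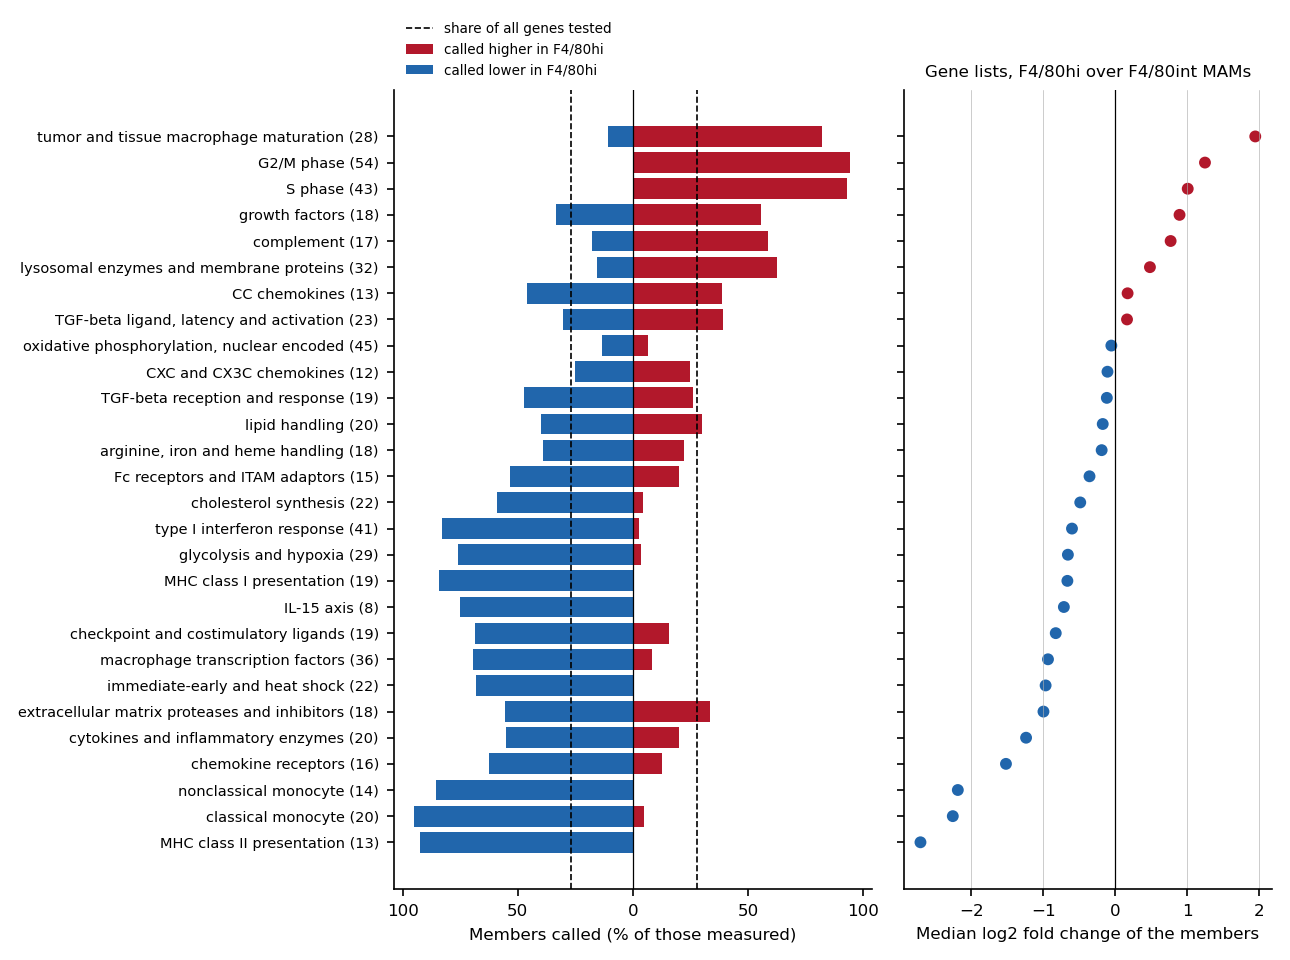
For each gene group, with its number of tested members in brackets, the share of members called higher (red bars, to the right) and lower (blue bars, to the left) in F4/80hi MAMs in percent, with dashed lines at the shares of all genes (27.8% and 27.1%), and the median log2 fold change of the members (right panel). Macrophage maturation and both cell cycle groups stand at the top with medians of 1.95, 1.25 and 1.01, and MHC class II, classical and nonclassical monocyte genes at the bottom with -2.71, -2.26 and -2.19.

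Genes of classical monocytes were lower in F4/80hi MAMs almost throughout. Of 20 members tested, 19 were called lower and 1, *F13a1*, was called higher, with a median log2 fold change of -2.26. *Ly6c2* (ENSMUSG00000022584.15, chromosome 15, 74980003 to 74988467 on GRCm39), which encodes the surface protein Ly6C and shares sequence with a close copy, *Ly6c1*, so that its reads may be split, was at 10.2, 12.6 and 3.53 CPM in F4/80hi and 119, 115 and 84.1 CPM in F4/80int libraries (log2 fold change -3.61 ± 0.39, adjusted p = 0.000165). *Ccr2* (ENSMUSG00000049103.15, chromosome 9, 123901982 to 123913594 on GRCm39), the receptor through which monocytes are recruited, was at 525, 439 and 426 CPM in F4/80hi and 1358, 1361 and 1392 CPM in F4/80int libraries (log2 fold change -1.56 ± 0.11, adjusted p = 1.4e-05). *Ccr2* was thus lower but far from absent in F4/80hi MAMs, while *Ly6c2* fell further. *Plac8*, a gene of immature myeloid cells, was at 15.8, 18.9 and 7.85 CPM in F4/80hi and 445, 418 and 531 CPM in F4/80int libraries (log2 fold change -5.04 ± 0.31, adjusted p = 8.79e-06). *S100a8*, a subunit of calprotectin, was at 3 counts or fewer in every F4/80hi library and at 21.05, 1.298 and 2.46 CPM in F4/80int libraries, which makes it at least 73.3-fold lower. Its F4/80int level came mainly from replicate 1, without which the fitted log2 fold change went from -8.16 to -6.02. *Fn1*, the fibronectin gene, was at 3552, 3162 and 4443 CPM in F4/80hi and 4801, 5429 and 7470.1 CPM in F4/80int libraries (log2 fold change -0.67 ± 0.19, adjusted p = 0.0202). *F13a1*, the coagulation factor XIII A chain, moved the other way and was at 584, 411 and 755 CPM in F4/80hi and 151, 173 and 264 CPM in F4/80int libraries (log2 fold change 1.57 ± 0.26, adjusted p = 0.00153). These libraries also held neutrophil markers in amounts that differed between replicates, and the part of these in the *S100a8* and *S100a9* values was not tested.

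Genes of nonclassical, or patrolling, monocytes fell too, with 12 of 14 members called lower, 0 called higher and a median log2 fold change of -2.19. Beside *Ace*, *Adgre4* was at 4.14, 5.92 and 3.15 CPM in F4/80hi and 102, 105 and 144 CPM in F4/80int libraries (log2 fold change -4.73 ± 0.24, adjusted p = 4.18e-06), and *Ear2*, a ribonuclease with close copies in the genome that may share its reads, was at 5.18, 3.15 and 2.82 CPM in F4/80hi and 104.3, 69.1 and 70.2 CPM in F4/80int libraries (log2 fold change -4.47 ± 0.26, adjusted p = 7.23e-06). *Pglyrp1*, a peptidoglycan recognition protein, was at 0.855, 0.177 and 0.357 CPM in F4/80hi and 13.8, 10.2 and 15.0 CPM in F4/80int libraries (log2 fold change -4.87 ± 0.43, adjusted p = 5.25e-05), and went to -5.57 without F4/80hi replicate 1. *Nr4a1* (ENSMUSG00000023034.8, chromosome 15, 101151980 to 101172681 on GRCm39), the nuclear receptor that these monocytes need and also an immediate-early gene, was at 312, 109.8 and 152 CPM in F4/80hi and 1633, 1023 and 1421 CPM in F4/80int libraries (log2 fold change -2.83 ± 0.38, adjusted p = 0.000469). No library of either subset crossed over for these 4 genes, which held for 58.4% of all genes. *Cx3cr1* (ENSMUSG00000052336.9, chromosome 9, 119877749 to 119898945 on GRCm39), the fractalkine receptor that is high on patrolling monocytes and on tissue macrophages, is counted with macrophage maturation here and rose. It was at 1457, 1264 and 1755 CPM in F4/80hi and 424, 578 and 519 CPM in F4/80int libraries (log2 fold change 1.56 ± 0.16, adjusted p = 0.000109).

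Genes of tumor and tissue macrophage maturation rose in F4/80hi MAMs. Of 28 members, 23 were called higher and 3 lower, and the median log2 fold change was 1.95 (1.83 to 2.07 when single libraries were left out). The list was written with earlier results of these data known. It holds *Gas6* and genes of proteins that the study names for these subsets, so these counts are a description only. *Mrc1* (ENSMUSG00000026712.4, chromosome 2, 14234151 to 14336926 on GRCm39), the mannose receptor CD206, was at 1453, 1030.3 and 1631 CPM in F4/80hi and 257, 202 and 224 CPM in F4/80int libraries (log2 fold change 2.59 ± 0.18, adjusted p = 1.75e-05). *Apoe* (ENSMUSG00000002985.17, chromosome 7, 19430034 to 19434947 on GRCm39), the apolipoprotein of macrophage lipid export, was at 10503, 8813 and 13647 CPM in F4/80hi and 2221, 2684 and 3363 CPM in F4/80int libraries (log2 fold change 2.00 ± 0.21, adjusted p = 0.000122). *Trem2* (ENSMUSG00000023992.15, chromosome 17, 48653429 to 48661175 on GRCm39), a lipid-sensing receptor, was at 308, 272 and 319 CPM in F4/80hi and 101, 98.4 and 145 CPM in F4/80int libraries (log2 fold change 1.39 ± 0.16, adjusted p = 0.000194). The 3 genes separated the subsets in every library, as did 58.4% of all genes. *Stab1*, a scavenger receptor, was at 3179.5, 2898 and 4312 CPM in F4/80hi and 249, 318 and 379 CPM in F4/80int libraries (log2 fold change 3.46 ± 0.21, adjusted p = 8.52e-06). *Folr2*, a folate receptor of resident-like macrophages, was at 89.6, 55.1 and 94.0 CPM in F4/80hi and 3.55, 2.22 and 8.35 CPM in F4/80int libraries (log2 fold change 4.11 ± 0.43, adjusted p = 0.000138), and *Pf4*, platelet factor 4, was at 138, 113 and 119 CPM in F4/80hi and 9.95, 7.14 and 25.3 CPM in F4/80int libraries (log2 fold change 3.14 ± 0.41, adjusted p = 0.00043). The F4/80int values of both were highest in replicate 3, without which the log2 fold changes were 4.78 and 3.85. *Csf1r*, the receptor for the macrophage growth factor CSF1, rose less, at 2899, 2353 and 3599 CPM against 1743, 1908 and 2025 CPM (log2 fold change 0.64 ± 0.16, adjusted p = 0.00992).

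The 3 members of the maturation group that fell were *Arg1*, *Axl* and *Gpnmb*. *Arg1* (ENSMUSG00000019987.10, chromosome 10, 24791118 to 24803817 on GRCm39), the arginase often used to mark tumor macrophages, was at 301, 275 and 270.0 CPM in F4/80hi and 649, 444 and 1209 CPM in F4/80int libraries (log2 fold change -1.44 ± 0.31, adjusted p = 0.00576). The F4/80hi libraries were close to each other, and the F4/80int libraries spread over more than 2-fold with replicate 3 highest. *Axl*, a receptor for Gas6, was at 735, 700.0 and 905 CPM in F4/80hi and 1051, 1109 and 1007 CPM in F4/80int libraries (log2 fold change -0.44 ± 0.12, adjusted p = 0.0146). *Gpnmb*, a glycoprotein of lipid-laden macrophages, was at 12.2, 17.0 and 7.91 CPM in F4/80hi and 22.1, 12.7 and 71.1 CPM in F4/80int libraries (log2 fold change -1.51 ± 0.58, adjusted p = 0.063). Its groups overlapped, and without F4/80int replicate 3 it was no longer called (log2 fold change -0.50, adjusted p = 0.275). The call of *Gpnmb* was also lost without F4/80hi replicate 1 (adjusted p = 0.13) or 3 (0.166). *Spp1*, osteopontin, behaved alike, at 578, 557 and 537 CPM against 696, 563 and 1415 CPM (log2 fold change -0.68 ± 0.30, adjusted p = 0.0958). It lost the call without F4/80int replicate 3 (adjusted p = 0.276), and also without F4/80hi replicate 1 (0.158), 2 (0.174) or 3 (0.182).

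Kupffer cell markers were low in both subsets. The 11 members tested summed to 35.0 to 61.6 CPM in F4/80hi and 95.7 to 106 CPM in F4/80int libraries, with 5 called higher and 3 lower. *Clec4f*, the marker most specific to Kupffer cells, was at 0.630, 2.80 and 0.422 CPM in F4/80hi and 0.558, 0.546 and 0.432 CPM in F4/80int libraries (log2 fold change 1.32 ± 0.69, adjusted p = 0.152), and was not called. Its log2 fold change was 0.01 without F4/80hi replicate 2, and without F4/80hi replicate 3 it was 1.74 and called (adjusted p = 0.0529). *Timd4*, the gene of TIM-4, was at 0.0901, 0.496 and 0.519 CPM in F4/80hi and 7.29, 8.74 and 9.21 CPM in F4/80int libraries (log2 fold change -4.44 ± 0.42, adjusted p = 7.49e-05), so that it was lower in F4/80hi libraries and under 10 CPM everywhere. *Vsig4*, the complement receptor CRIg, was at 2.43, 4.07 and 2.01 CPM in F4/80hi and 0.493, 0.273 and 0.1297 CPM in F4/80int libraries (log2 fold change 3.19 ± 0.49, adjusted p = 0.000978). Most of the sum came from *Id3* and *Nr1h3*, which other myeloid cells also express and which fell. *Id3*, an inhibitor of DNA binding, was at 10.8, 10.5 and 5.81 CPM in F4/80hi and 59.9, 46.3 and 45.1 CPM in F4/80int libraries (log2 fold change -2.49 ± 0.23, adjusted p = 7.17e-05).

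**Figure D3:**
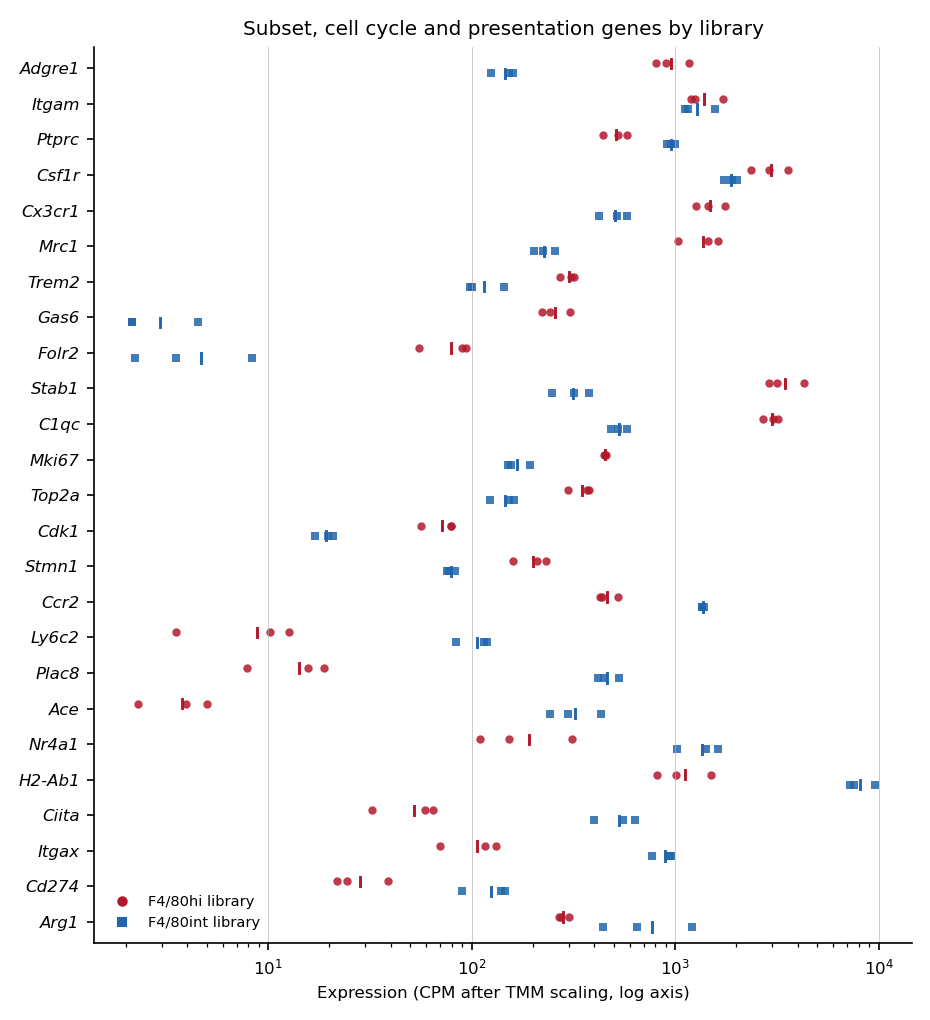
CPM after TMM scaling (log axis) of sort, maturation, proliferation, monocyte and antigen presentation genes in each of the 3 F4/80hi (red circles) and 3 F4/80int (blue squares) libraries, with the mean of each subset as a vertical bar. *Ly6c2* and *Plac8* lie to the left and *Gas6* and *Folr2* to the right in F4/80hi MAMs, and *Itgam* overlaps.

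Markers of other cells that a CD11b+ gate could hold moved with the subsets. The 10 markers of mature migratory DCs were all called lower in F4/80hi MAMs, with a median log2 fold change of -5.05, and summed to 62.3 to 88.1 CPM in F4/80hi and 1004 to 1989 CPM in F4/80int libraries. *Ccr7*, the receptor that takes DCs to lymph nodes, was at 5.72, 0.992 and 3.11 CPM in F4/80hi and 323, 165 and 146 CPM in F4/80int libraries (log2 fold change -6.05 ± 0.56, adjusted p = 6.87e-05). Its log2 fold change was -6.67 without F4/80hi replicate 1. *Fscn1*, the actin bundler of mature DCs, was at 29.8, 56.5 and 31.5 CPM in F4/80hi and 541, 318 and 247 CPM in F4/80int libraries (log2 fold change -3.23 ± 0.35, adjusted p = 0.000159). Replicate 1 was the highest F4/80int library for both, as for *Ccl17* and *Ccl22*.

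Of 13 markers of conventional DCs, 10 were called lower and 2 higher, and they summed to 113 to 144 CPM in F4/80hi and 554 to 802 CPM in F4/80int libraries. *Flt3*, the receptor for the DC growth factor FLT3L, was at 2.61, 1.95 and 1.72 CPM in F4/80hi and 132, 115 and 72.3 CPM in F4/80int libraries (log2 fold change -5.69 ± 0.28, adjusted p = 3.52e-06). *Zbtb46*, a transcription factor of the DC lineage, was at 1.22, 2.48 and 1.62 CPM in F4/80hi and 56.2, 66.6 and 42.4 CPM in F4/80int libraries (log2 fold change -4.94 ± 0.26, adjusted p = 4.51e-06). *Cd209a*, a lectin of CD11b+ DCs and of monocyte-derived cells, was at 2.43, 2.55 and 0.811 CPM in F4/80hi and 141, 134 and 109.7 CPM in F4/80int libraries (log2 fold change -6.08 ± 0.33, adjusted p = 4.83e-06). These 3 fell by more than 30-fold with no overlap. *Xcr1*, the receptor that defines cross-presenting DCs, stayed low in both subsets, at 1.76, 0.8502 and 2.01 CPM against 2.53, 4.13 and 0.605 CPM, and was not called. Without F4/80int replicate 3 it was called lower (log2 fold change -1.11, adjusted p = 0.071). The members that rose were *Cadm1*, an adhesion molecule, with a log2 fold change of 2.83, and *Tlr3*, an RNA sensor, with 0.96. None of the DC markers was at 0 in every library of a subset.

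Neutrophil markers summed to 85.3 to 119 CPM in F4/80hi and 379 to 639 CPM in F4/80int libraries, with 9 of 10 members called lower. *Mmp9*, a gelatinase that macrophages also make, carried most of the sum in F4/80int libraries and was at 8.64, 6.84 and 11.1 CPM in F4/80hi and 427, 273 and 358 CPM in F4/80int libraries (log2 fold change -5.31 ± 0.24, adjusted p = 2.48e-06). *Csf3r*, the G-CSF receptor, was at 80.4, 73.3 and 103 CPM in F4/80hi and 66.8, 84.1 and 74.8 CPM in F4/80int libraries (log2 fold change 0.19 ± 0.14, adjusted p = 0.306), and was not called, so that it carried most of the F4/80hi sum. The granule genes *Ngp*, *S100a8* and *S100a9* stood out in F4/80int replicate 1, as given above, and *Ly6g*, *Mpo*, *Elane* and *Camp* have no line in the table. Markers of NK cells summed to 20.7 to 35.2 CPM against 135 to 251 CPM, mostly from *Klrk1* (6.84, 3.86 and 4.25 against 102, 73.8 and 58.1 CPM) and *Ccl5*, and the killing genes *Gzma*, *Gzmb* and *Prf1* stayed below 11 CPM in every library and were near the F4/80hi level in F4/80int replicate 3. *Gzmb* lost its call without F4/80hi replicate 2 (adjusted p = 0.112) or F4/80int replicate 2 (0.132). The log2 fold changes of *Gzma* (-3.28) and *Prf1* (-3.03) were -4.45 without F4/80hi replicate 1 and -4.13 without F4/80hi replicate 3. T cell markers summed to 10.3 to 25.3 CPM against 14.5 to 43.3 CPM, with 3 of 13 called lower. That count was 8 without F4/80hi replicate 1 or F4/80int replicate 3, and 1 without any other single library. B cell markers summed to 134 to 250.1 CPM against 101 to 205 CPM, with 2 of 11 called higher. This number was 6 without F4/80int replicate 1, 3 without F4/80hi replicate 2, and 1 without any other single library.

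Fibroblast and stellate cell markers went the other way. Of 9 members, 7 were called higher in F4/80hi MAMs and 0 lower, the median log2 fold change was 1.78, and the sums were 362 to 765 CPM in F4/80hi and 64.9 to 207 CPM in F4/80int libraries. *Col1a2*, a chain of collagen I, was at 111, 336 and 139.9 CPM in F4/80hi and 41.8, 18.6 and 30.4 CPM in F4/80int libraries (log2 fold change 2.69 ± 0.45, adjusted p = 0.0016), with F4/80hi replicate 2 highest and a log2 fold change of 2.05 without it. *Col1a1*, the other chain, was at 24.1, 20.1 and 23.5 CPM in F4/80hi and 34.0, 6.15 and 19.7 CPM in F4/80int libraries (log2 fold change 0.18 ± 0.47, adjusted p = 0.783), and was not called. Hepatocyte markers were low apart from *Trf*, the transferrin gene, which was at 473, 353 and 726 CPM in F4/80hi and 242, 208 and 236 CPM in F4/80int libraries (log2 fold change 1.18 ± 0.23, adjusted p = 0.0035), and *Alb*, albumin, was at 5.00, 6.84 and 1.23 against 1.74, 3.59 and 1.43 CPM. Without F4/80hi replicate 3, 4 hepatocyte markers in place of 1 were called higher, among them *Alb* (log2 fold change 1.38, adjusted p = 0.0288). Markers of tumor epithelium summed to 9.70 to 12.9 CPM in F4/80hi and 199.9 to 285 CPM in F4/80int libraries, nearly all of it *Cdh1*, the E-cadherin gene, which was at 8.06, 11.5 and 8.14 CPM in F4/80hi and 247, 264 and 189 CPM in F4/80int libraries (log2 fold change -4.66 ± 0.19, adjusted p = 1.94e-06). *Epcam*, at 16.7, 17.2 and 7.70 CPM in F4/80int libraries, is known from some DCs as well, and the keratins *Krt8*, *Krt18* and *Krt19* have no line in the table. Plasmacytoid DC markers went both ways, with 3 of 7 called higher, among them *Bst2* and *Tcf4*, and 3 lower, among them *Siglech*, the most specific of them, at 0.765, 0.142 and 0.389 against 2.30, 2.49 and 1.17 CPM. Endothelial markers summed to 92.0 to 121 CPM against 106 to 133 CPM, and markers of eosinophils, basophils and mast cells to at most 18.8 CPM in any library. What part these cells had in the differences was not tested.

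**Figure D4:**
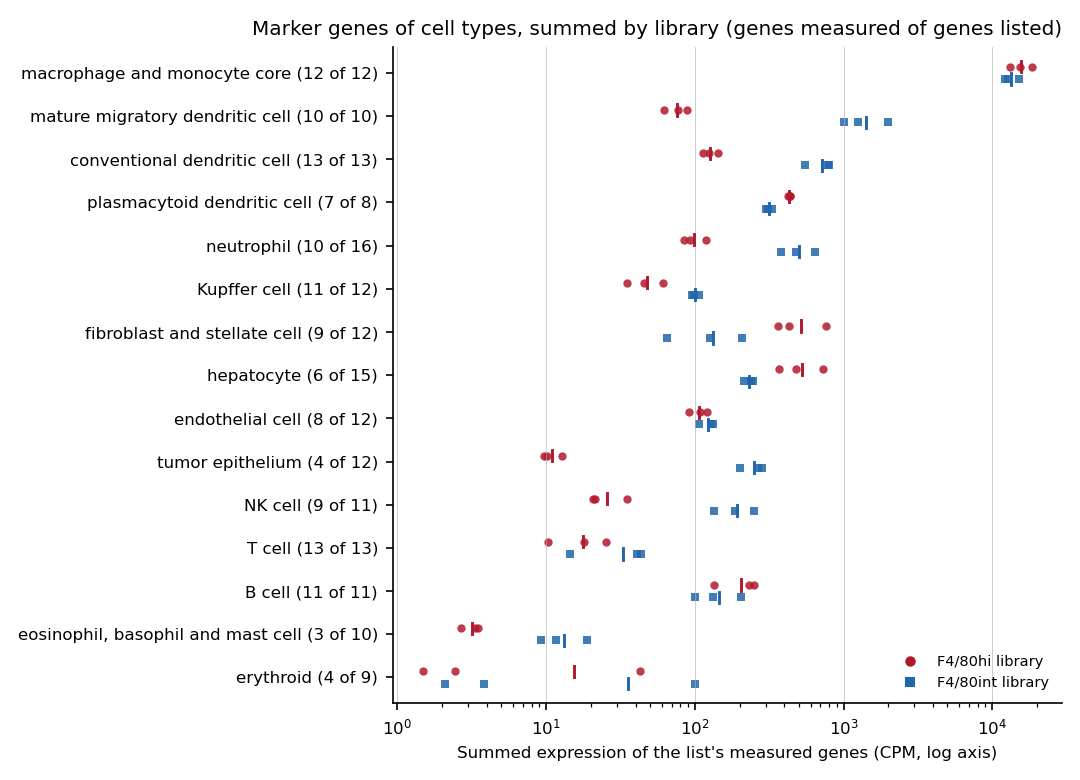
Summed level of the markers of each cell type (CPM, log axis) in the 3 F4/80hi (red circles) and 3 F4/80int (blue squares) libraries. The sums of mature DC, conventional DC, neutrophil, NK cell and tumor epithelium markers are lower in every F4/80hi library, the fibroblast sums are higher, and the sums of macrophage core markers overlap.

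Cell cycle genes were higher in F4/80hi MAMs. Of 43 S phase genes, 40 were called higher and 0 lower (median log2 fold change 1.01), and of 54 G2/M genes, 51 were called higher and 0 lower (median 1.25). The summed level of the S phase genes was 2553 to 3160 CPM in F4/80hi and 1456 to 1614 CPM in F4/80int libraries, and that of the G2/M genes 4109 to 4954 CPM and 2295 to 2589 CPM. *Mki67* (ENSMUSG00000031004.9, chromosome 7, 135291513 to 135318299 on GRCm39), the gene of the proliferation antigen Ki-67, was at 450.1, 456 and 449 CPM in F4/80hi and 155, 194 and 150.2 CPM in F4/80int libraries (log2 fold change 1.44 ± 0.11, adjusted p = 2.99e-05). *Top2a* (ENSMUSG00000020914.18, chromosome 11, 98883769 to 98915062 on GRCm39), the topoisomerase of dividing cells, was at 379, 368 and 299 CPM in F4/80hi and 153, 162 and 123 CPM in F4/80int libraries (log2 fold change 1.26 ± 0.13, adjusted p = 0.000139). *Cdk1* (ENSMUSG00000019942.14, chromosome 10, 69170976 to 69236595 on GRCm39), the kinase that drives entry into mitosis, was at 78.9, 79.6 and 56.3 CPM in F4/80hi and 20.8, 19.8 and 17.1 CPM in F4/80int libraries (log2 fold change 1.90 ± 0.15, adjusted p = 3.31e-05). All F4/80hi values lay above all F4/80int values for each of these. *Stmn1*, a microtubule-destabilizing protein, was at 231, 209.7 and 160.2 CPM in F4/80hi and 82.7, 77.6 and 76.1 CPM in F4/80int libraries (log2 fold change 1.35 ± 0.13, adjusted p = 0.000102). *Ccne2*, cyclin E2, was at 19.3, 25.8 and 16.4 CPM in F4/80hi and 5.09, 6.90 and 4.97 CPM in F4/80int libraries (log2 fold change 1.85 ± 0.21, adjusted p = 0.000183). *Pcna*, the replication clamp, was at 255, 274 and 219 CPM in F4/80hi and 157, 146 and 142 CPM in F4/80int libraries (log2 fold change 0.75 ± 0.10, adjusted p = 0.00056), a smaller step than those of the mitotic genes named here. *Anln*, the anillin of the cleavage furrow, was at 74.2, 79.0 and 69.7 CPM in F4/80hi and 19.0, 20.4 and 16.2 CPM in F4/80int libraries (log2 fold change 2.00 ± 0.11, adjusted p = 4.93e-06), and *Pimreg* was at 28.1, 27.3 and 21.4 CPM in F4/80hi and 7.03, 6.90 and 4.45 CPM in F4/80int libraries (log2 fold change 2.05 ± 0.19, adjusted p = 7.54e-05). The 3 S phase genes that were not called were *Casp8ap2*, *Pold3* and *Mrpl36*, and the 3 G2/M genes were *Jpt1*, *Ctcf* and *Lbr*. *Casp8ap2* was called without F4/80hi replicate 1 (log2 fold change 0.29, adjusted p = 0.0658).

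Promoters of G2/M genes often hold a cell cycle genes homology region (CHR, searched as TTTGAA) next to CCAAT boxes (searched as CCAAT). Both motifs were searched on both strands in the 250 bases before the gene start, in RefSeq promoters on GRCm38.p6. Of the 54 G2/M genes, 47 had a promoter in the table, and 20 (42.6%) held a CHR, 36 (76.6%) a CCAAT box and 18 (38.3%) both. Among all 10073 tested genes with a promoter the shares were 13.2%, 40.9% and 6.14%. Of 31 S phase promoters, 5 held a CHR and 21 (67.7%) a CCAAT box. The 150 bases before the start of *Cdk1* (chr10:69352913-69353062, minus strand), *Top2a* (chr11:99024190-99024339, minus strand) and *Mki67* (chr7:135716380-135716529, minus strand) are shown to let these motifs be seen, in capitals and in the direction of transcription.
Cdk1: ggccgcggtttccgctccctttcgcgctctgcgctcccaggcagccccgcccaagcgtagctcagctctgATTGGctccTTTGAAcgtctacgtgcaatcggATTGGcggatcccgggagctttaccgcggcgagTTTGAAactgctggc
Top2a: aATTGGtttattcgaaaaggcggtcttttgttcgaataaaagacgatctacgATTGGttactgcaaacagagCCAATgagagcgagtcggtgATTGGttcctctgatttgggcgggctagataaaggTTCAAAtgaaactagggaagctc
Mki67: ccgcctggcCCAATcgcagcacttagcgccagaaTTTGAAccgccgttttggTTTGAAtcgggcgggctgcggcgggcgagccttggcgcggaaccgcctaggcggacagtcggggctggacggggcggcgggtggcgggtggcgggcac
In *Cdk1*, CHR letters begin 15 and 71 bases before the start and CCAAT letters, on either strand, at 48 and 80. *Top2a* has a CHR at 23 and CCAAT boxes at 58, 78, 98 and 149, and *Mki67* has CHR letters at 98 and 116 and a CCAAT box at 141. A match of letters is a description and says nothing of which factor binds.

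MHC class II genes were lower in F4/80hi MAMs. Of 13 members of the presentation pathway, 12 were called lower and 0 higher, and the median log2 fold change was -2.71 (-3.01 without F4/80hi replicate 1). *H2-Ab1* (ENSMUSG00000073421.7, chromosome 17, 34476663 to 34488393 on GRCm39), the β chain of I-A, was at 1509, 813 and 1015 CPM in F4/80hi and 9579.5, 7576 and 7252 CPM in F4/80int libraries (log2 fold change -2.87 ± 0.24, adjusted p = 4.08e-05). *Cd74*, the invariant chain, was at 4140.3, 2308 and 2964 CPM in F4/80hi and 20877, 17289.6 and 16517 CPM in F4/80int libraries (log2 fold change -2.54 ± 0.22, adjusted p = 5.03e-05). *Ciita*, the coactivator that switches the class II genes on, was at 64.6, 32.2 and 59.1 CPM in F4/80hi and 556, 635 and 399 CPM in F4/80int libraries (log2 fold change -3.35 ± 0.28, adjusted p = 4.4e-05). Within F4/80hi MAMs replicate 1 was the highest for all 3, and it stayed far below every F4/80int library. The widest falls of the list were those of *H2-Oa* (2.84, 2.20 and 1.23 against 79.8, 67.1 and 54.5 CPM, log2 fold change -5.04 ± 0.27) and *H2-Eb2* (0.810, 0.531 and 0.389 against 22.6, 14.7 and 15.4 CPM, -4.95 ± 0.30), which encode a regulator of peptide loading and a chain similar to the classical ones. *Ctss*, the protease that trims the invariant chain, was at 3169, 2620.1 and 3148 CPM in F4/80hi and 2986, 2795 and 3126 CPM in F4/80int libraries (log2 fold change 0.00 ± 0.11, adjusted p = 0.975), and was the member not called. Class II RNA was thus lower but not lost in F4/80hi MAMs. The conventional and mature DC markers fell together with these genes, with the sums given above, and their part in the class II difference was not tested.

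Of the 13 class II genes, 10 had a promoter in the table and 8 (80%) held CCAAT letters, against 40.9% of all tested genes with a promoter. CCAAT letters were also held by 16 of 16 cholesterol synthesis promoters (100%). The interferon response promoters (41.4%) and the glycolysis and hypoxia promoters (37%) were near the share of all genes. The promoters of *H2-Aa* (chr17:34287824-34287973, minus strand) and *H2-Eb1* (chr17:34305717-34305866, plus strand) are shown for the α chain of I-A and the β chain of I-E, with CCAAT letters of either strand in capitals. *H2-Aa* was at 1178, 624 and 842 CPM in F4/80hi and 6801, 5505 and 5009 CPM in F4/80int libraries (log2 fold change -2.71 ± 0.24, adjusted p = 5.25e-05), and *H2-Eb1* was at 1245, 649 and 809 CPM in F4/80hi and 7041, 5418 and 5184 CPM in F4/80int libraries (log2 fold change -2.71 ± 0.25, adjusted p = 6.78e-05). The *Isg15* promoter (chr4:156200819-156200968, minus strand) is added for the interferon genes that follow, with overlapping interferon-stimulated response element letters (searched as GAAA, any 2 bases and GAAA on both strands) in capitals.
H2-Aa: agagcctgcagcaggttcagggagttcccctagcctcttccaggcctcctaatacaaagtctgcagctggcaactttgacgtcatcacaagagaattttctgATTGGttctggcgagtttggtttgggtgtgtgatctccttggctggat
H2-Eb1: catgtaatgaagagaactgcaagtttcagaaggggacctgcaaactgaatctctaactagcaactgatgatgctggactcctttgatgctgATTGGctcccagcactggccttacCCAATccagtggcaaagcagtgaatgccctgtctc
Isg15: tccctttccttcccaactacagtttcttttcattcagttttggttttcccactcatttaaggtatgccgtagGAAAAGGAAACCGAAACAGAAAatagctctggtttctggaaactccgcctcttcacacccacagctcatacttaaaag
The CCAAT letters begin 48 bases before the start of *H2-Aa* and 35 and 59 bases before that of *H2-Eb1*. In *Isg15* the response element letters begin at 66, 72 and 78 bases.

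MHC class I genes and interferon-stimulated genes were lower by smaller steps. Of 19 class I presentation genes, 16 were called lower and 0 higher, with a median log2 fold change of -0.67. *H2-D1*, a classical class I chain, was at 2112, 1806 and 2132 CPM in F4/80hi and 3063, 2592 and 2943 CPM in F4/80int libraries (log2 fold change -0.51 ± 0.11, adjusted p = 0.00638). *H2-Q6* and *H2-Q7*, which are near copies of each other and may share reads, had log2 fold changes of -1.81 ± 0.22 and -1.37 ± 0.16. *B2m*, the light chain, was at 2309.7, 2046 and 2359 CPM in F4/80hi and 2657, 2426 and 2552 CPM in F4/80int libraries (log2 fold change -0.19 ± 0.10, adjusted p = 0.161), and was not called. Of 41 type I interferon response genes, 34 were called lower and 1 higher, with a median of -0.60 (-0.72 without F4/80hi replicate 3). *Isg20*, an RNA exonuclease, was at 9.19, 9.35 and 10.99 CPM in F4/80hi and 38.8, 31.1 and 35.7 CPM in F4/80int libraries (log2 fold change -1.83 ± 0.12, adjusted p = 1.17e-05). *Slfn5* was at 219, 194 and 248 CPM in F4/80hi and 462, 556 and 536 CPM in F4/80int libraries (log2 fold change -1.23 ± 0.12, adjusted p = 8.46e-05). *Isg15*, the ubiquitin-like modifier, was at 52.3, 59.9 and 53.4 CPM in F4/80hi and 124, 103.7 and 129 CPM in F4/80int libraries (log2 fold change -1.11 ± 0.11, adjusted p = 8.45e-05). The exception, *Bst2* (tetherin), was higher in F4/80hi MAMs and was at 273, 319 and 286 CPM in F4/80hi and 182, 176 and 202 CPM in F4/80int libraries (log2 fold change 0.65 ± 0.09, adjusted p = 0.000794). Of 29 interferon promoters in the table, 13 (44.8%) held the response element letters, against 3.57% of all tested genes with a promoter.

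CC chemokines divided by member. Of 13 tested, 5 were called higher and 6 lower in F4/80hi MAMs (median log2 fold change 0.17, and -0.05 without F4/80hi replicate 2). Besides *Ccl8*, *Ccl12* was at 191, 266 and 251 CPM in F4/80hi and 14.2, 20.4 and 25.3 CPM in F4/80int libraries (log2 fold change 3.57 ± 0.22, adjusted p = 9.64e-06). *Ccl7* was at 225, 262 and 219 CPM in F4/80hi and 30.5, 27.6 and 59.8 CPM in F4/80int libraries (log2 fold change 2.59 ± 0.28, adjusted p = 0.000149), and *Ccl2* (ENSMUSG00000035385.6, chromosome 11, 81926397 to 81928279 on GRCm39) was at 328, 361 and 286 CPM in F4/80hi and 126, 125 and 194 CPM in F4/80int libraries (log2 fold change 1.13 ± 0.18, adjusted p = 0.0012). *Ccl12*, *Ccl7*, *Ccl2* and *Ccl8* lie close together on chromosome 11 and are similar in sequence, so that reads may be shared between copies. *Ccl4*, a macrophage inflammatory protein, was at 118, 78.8 and 113 CPM in F4/80hi and 67.0, 36.1 and 71.7 CPM in F4/80int libraries (log2 fold change 0.83 ± 0.26, adjusted p = 0.0273), while *Ccl3*, another, was at 149, 92.3 and 149 CPM in F4/80hi and 109.7, 58.7 and 97.6 CPM in F4/80int libraries (log2 fold change 0.55 ± 0.25, adjusted p = 0.106) and was not called. *Ccl3* passed the test without F4/80hi replicate 2 (log2 fold change 0.75, adjusted p = 0.0364) or F4/80int replicate 1 (0.73, adjusted p = 0.0701). *Ccl6* was at 131, 89.8 and 113 CPM in F4/80hi and 477, 308 and 546 CPM in F4/80int libraries (log2 fold change -2.0 ± 0.22, adjusted p = 0.000178), and *Ccl9* was at 312, 227 and 244 CPM in F4/80hi and 476, 347 and 583 CPM in F4/80int libraries (log2 fold change -0.85 ± 0.20, adjusted p = 0.00776). *Ccl5*, an attractant of T and NK cells, was at 22.5, 14.7 and 13.005 CPM in F4/80hi and 122, 78.9 and 72.7 CPM in F4/80int libraries (log2 fold change -2.46 ± 0.26, adjusted p = 0.000134). Together with *Ccl17*, *Ccl22* and *Ccl24* these are the members that fell. *Ccl24* was at 2.84, 0.921 and 0.876 against 20.5, 4.68 and 5.02 CPM (log2 fold change -2.74), and at -1.68 without F4/80int replicate 1 and -3.49 without F4/80hi replicate 1. *Ccl5*, *Ccl17* and *Ccl22* were also counted among the mature DC markers, and the part of DCs in their fall was not tested.

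*Cxcl9* and *Cxcl10*, whose proteins bind CXCR3 on NK cells, did not pass the test. *Cxcl9* (ENSMUSG00000029417.10, chromosome 5, 92469206 to 92475945 on GRCm39) was at 184, 74.2 and 113 CPM in F4/80hi and 249, 168 and 110.3 CPM in F4/80int libraries (log2 fold change -0.51 ± 0.36, adjusted p = 0.277), with overlapping ranges. It was called lower without F4/80hi replicate 1 (log2 fold change -0.91, adjusted p = 0.0637). *Cxcl10* (ENSMUSG00000034855.14, chromosome 5, 92494497 to 92496748 on GRCm39) was at 193, 197 and 152 CPM in F4/80hi and 172, 191 and 199.6 CPM in F4/80int libraries (log2 fold change -0.05 ± 0.12, adjusted p = 0.733). The difference of *Cxcl10* was smaller than its SE. *Cxcl11*, the CXCR3 ligand which C57BL/6 mice are known to carry with a frameshift, was at 0.765, 0.602 and 0.551 CPM in F4/80hi and 5.68, 4.51 and 3.81 CPM in F4/80int libraries (log2 fold change -2.87 ± 0.28, adjusted p = 8.61e-05), and was lower in every F4/80hi library at a low level. *Cxcl16*, the ligand of CXCR6, was at 574, 495 and 576 CPM in F4/80hi and 585, 461 and 449.7 CPM in F4/80int libraries (log2 fold change 0.14 ± 0.12, adjusted p = 0.394), and was not called. Of the 12 CXC and CX3C members, 3 were called higher and 3 lower, and *Pf4* and *Cxcl14* were among those that rose. *Cxcl14* was at 100.3, 119 and 124 CPM in F4/80hi and 44.4, 45.0 and 85.0 CPM in F4/80int libraries (log2 fold change 0.98 ± 0.24, adjusted p = 0.0103). *Cx3cl1*, the membrane-bound ligand of CX3CR1, was at 0.765, 0.425 and 0.876 CPM in F4/80hi and 25.3, 19.3 and 15.9 CPM in F4/80int libraries (log2 fold change -4.86 ± 0.29, adjusted p = 7.51e-06), in the direction opposite to its receptor. *Cxcl3*, a neutrophil attractant, was at 0.450, 0.248 and 0.811 CPM in F4/80hi and 9.72, 4.44 and 24.8 CPM in F4/80int libraries (log2 fold change -4.65 ± 0.71, adjusted p = 0.000986), with -3.78 without F4/80int replicate 3.

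Among 16 chemokine receptors, 10 were called lower and 2, among them *Cx3cr1*, higher in F4/80hi MAMs. *Ccr1* was at 255, 210.2 and 246 CPM in F4/80hi and 249, 246 and 310.1 CPM in F4/80int libraries (log2 fold change -0.18 ± 0.12, adjusted p = 0.258), and was not called. *Cxcr4*, the receptor of CXCL12, was at 105, 68.2 and 73.1 CPM in F4/80hi and 253, 192 and 239 CPM in F4/80int libraries (log2 fold change -1.48 ± 0.18, adjusted p = 0.000272). *Ccr7* fell most, as given with the DC markers.

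**Figure D5:**
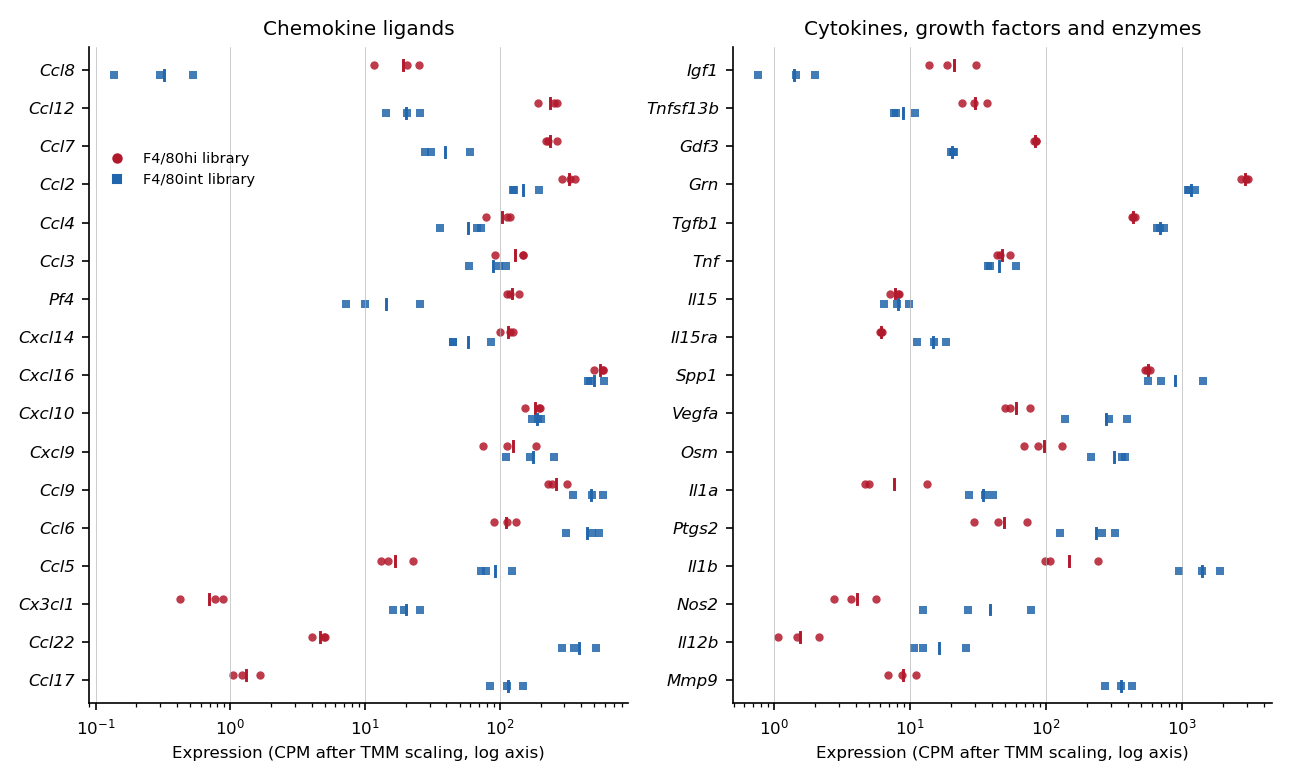
CPM after TMM scaling (log axes) of chemokine ligands (left) and of cytokines, growth factors and enzymes (right) in each F4/80hi (red circles) and F4/80int (blue squares) library, with subset means as vertical bars. *Ccl8*, *Ccl12* and *Igf1* lie to the right in F4/80hi MAMs, *Ccl17*, *Ccl22*, *Il1b* and *Mmp9* lie to the left, and *Cxcl9*, *Cxcl10*, *Il15* and *Tnf* overlap.

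Of IL-15 and the chain that presents it, only the latter was called. *Il15* (ENSMUSG00000031712.11, chromosome 8, 83054226 to 83129874 on GRCm39) was at 8.06, 7.09 and 8.20 CPM in F4/80hi and 9.82, 6.39 and 8.00 CPM in F4/80int libraries (log2 fold change -0.05 ± 0.18, adjusted p = 0.836), and the subsets overlapped. *Il15ra* (ENSMUSG00000023206.17, chromosome 2, 11710101 to 11739128 on GRCm39), the chain on which macrophages present IL-15 to NK cells, was at 5.94, 6.09 and 6.19 CPM in F4/80hi and 18.2, 14.9 and 11.2 CPM in F4/80int libraries (log2 fold change -1.28 ± 0.18, adjusted p = 0.000723). All F4/80int libraries were above all F4/80hi libraries for *Il15ra*, at low levels in both. Within F4/80int MAMs, *Il15ra* ranked as the mature DC marker sums did (1989, 1249 and 1004 CPM). The part of DCs in its difference was not tested. Of the 8 genes of the IL-15 axis, 6 were called lower (4 without F4/80hi replicate 2 or F4/80int replicate 2) and 0 higher, among them *Il2rg*, the shared γ chain, which was at 156, 131 and 145 CPM in F4/80hi and 283, 272 and 262 CPM in F4/80int libraries (log2 fold change -0.92 ± 0.09, adjusted p = 9.79e-05), and *Stat5a*, which was at 34.0, 35.2 and 36.8 CPM in F4/80hi and 93.2, 105 and 73.9 CPM in F4/80int libraries (log2 fold change -1.36 ± 0.13, adjusted p = 8.03e-05). *Il2rb* overlapped between subsets (6.48, 1.98 and 5.61 against 18.5, 22.3 and 4.28 CPM). Its call was lost without F4/80int replicate 1 (adjusted p = 0.113) or 2 (0.148) or F4/80hi replicate 2 (0.118). That of *Jak1* was lost without F4/80hi replicate 1 (adjusted p = 0.138) or 2 (0.122) or F4/80int replicate 2 (0.105) or 3 (0.102).

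Of 20 genes of cytokines and inflammatory enzymes, 11 were called lower in F4/80hi MAMs and 4 higher, with a median log2 fold change of -1.24. *Il1b* (ENSMUSG00000027398.14, chromosome 2, 129206490 to 129213059 on GRCm39) was at 239.8, 98.1 and 107 CPM in F4/80hi and 1888, 946 and 1392 CPM in F4/80int libraries (log2 fold change -3.25 ± 0.40, adjusted p = 0.000289). *Il12b*, the p40 chain of IL-12 that activates NK cells, was at 2.12, 1.06 and 1.46 CPM in F4/80hi and 25.5, 12.5 and 10.6 CPM in F4/80int libraries (log2 fold change -3.41 ± 0.40, adjusted p = 0.000235). *Osm*, oncostatin M, was at 131, 68.7 and 87.8 CPM in F4/80hi and 377, 214 and 360.2 CPM in F4/80int libraries (log2 fold change -1.73 ± 0.28, adjusted p = 0.00126), and *Ptgs2*, cyclooxygenase 2, was at 72.9, 29.7 and 43.8 CPM in F4/80hi and 319, 127 and 257 CPM in F4/80int libraries (log2 fold change -2.27 ± 0.40, adjusted p = 0.00196). The lowest F4/80int value was above the highest F4/80hi value for each of these. Within F4/80int MAMs, *Il12b* ranked as the mature DC marker sums did (1989, 1249 and 1004 CPM). The part of DCs in its difference was not tested. *Tnf* was at 54.0, 45.6 and 43.2 CPM in F4/80hi and 60.2, 37.1 and 38.5 CPM in F4/80int libraries (log2 fold change 0.07 ± 0.19, adjusted p = 0.78), and was not called, but passed without F4/80int replicate 1 (log2 fold change 0.32, adjusted p = 0.0655). *Tnfsf13b*, the B cell factor BAFF, rose and was at 29.4, 24.0 and 36.8 CPM in F4/80hi and 10.9, 7.82 and 7.61 CPM in F4/80int libraries (log2 fold change 1.78 ± 0.19, adjusted p = 0.000168). *Il10*, an anti-inflammatory cytokine, was at 4.41, 1.03 and 2.37 against 1.41, 0.342 and 1.21 CPM and passed narrowly (adjusted p = 0.0993). Its call was lost without F4/80hi replicate 1 (log2 fold change 0.79 in place of 1.39, adjusted p = 0.341) or 3 (0.146). It was also lost without F4/80int replicate 2 (0.221) or 3 (0.135). The interleukin and *Ptgs2* RNAs are themselves rapidly inducible. Immediate-early genes moved with them. Of 22 immediate-early and heat shock genes that tissue dissociation is known to induce, 15 were called lower in F4/80hi MAMs and 0 higher, with sums of 10227 to 11956 CPM against 18135 to 21942 CPM. Among these *Fos* was at 1913, 1107 and 1918 CPM in F4/80hi and 2277, 1636 and 1984 CPM in F4/80int libraries (log2 fold change -0.26 ± 0.22, adjusted p = 0.367), and was not called, whereas *Btg2* was at 173, 103 and 145 CPM in F4/80hi and 675, 514 and 571 CPM in F4/80int libraries (log2 fold change -2.07 ± 0.19, adjusted p = 7.26e-05). *Egr3*, at 5.85, 1.70 and 2.33 against 30.9, 15.0 and 15.7 CPM, had a log2 fold change of -2.67, and -3.34 without F4/80hi replicate 1. The part of dissociation in the fall of *Il1b*, *Ptgs2*, *Nr4a1* and other inducible genes was not tested.

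TGF-β genes were mixed. Of 23 ligand, latency and activation genes, 9 were called higher and 7 lower (median log2 fold change 0.17, and -0.05 without F4/80hi replicate 2), and of 19 receptor and response genes, 5 were called higher and 9 lower (median -0.12). *Tgfb1* (ENSMUSG00000002603.16, chromosome 7, 25386390 to 25404506 on GRCm39), the ligand itself, was lower in F4/80hi MAMs and was at 436, 425 and 448 CPM in F4/80hi and 651, 688 and 732 CPM in F4/80int libraries (log2 fold change -0.66 ± 0.09, adjusted p = 0.000398). *Tgfb3*, another ligand, was at 18.5, 15.7 and 24.2 CPM in F4/80hi and 9.26, 5.12 and 14.4 CPM in F4/80int libraries (log2 fold change 1.03 ± 0.33, adjusted p = 0.0319), a call lost without F4/80hi replicate 3 (adjusted p = 0.102). The main ligand and this one thus moved in opposite directions. Of the integrins that bind latent TGF-β1, *Itgb5* was at 732, 706 and 803 CPM in F4/80hi and 376, 496 and 525 CPM in F4/80int libraries (log2 fold change 0.68 ± 0.13, adjusted p = 0.00349). *Itgav*, the α chain it pairs with, was at 169, 163 and 179.8 CPM in F4/80hi and 127, 157 and 147 CPM in F4/80int libraries (log2 fold change 0.25 ± 0.10, adjusted p = 0.0673). The call of *Itgav* was lost without F4/80int replicate 1 (adjusted p = 0.255) or 3 (0.125), and without F4/80hi replicate 1 (0.137) or 3 (0.173). *Itgb8* was not called, at 0.765, 1.84 and 0.551 against 1.15, 0.820 and 1.04 CPM. *Itgb3* fell and was at 0.855, 2.09 and 1.17 CPM in F4/80hi and 11.000, 8.54 and 10.1 CPM in F4/80int libraries (log2 fold change -2.83 ± 0.31, adjusted p = 0.000164). *Nrros*, the protein that anchors latent TGF-β1 on myeloid cells, was at 275, 289 and 305 CPM in F4/80hi and 295, 352 and 319.6 CPM in F4/80int libraries (log2 fold change -0.15 ± 0.09, adjusted p = 0.218), and was not called. *Furin*, the convertase that cleaves the precursor, was at 333, 319.7 and 319 CPM in F4/80hi and 396, 376 and 487 CPM in F4/80int libraries (log2 fold change -0.37 ± 0.11, adjusted p = 0.0232).

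Proteases and matrix proteins that activate or store TGF-β went both ways. *Plau*, urokinase, was at 388, 424 and 286 CPM in F4/80hi and 138, 133 and 132 CPM in F4/80int libraries (log2 fold change 1.45 ± 0.14, adjusted p = 9.22e-05). *Mmp14*, a membrane metalloproteinase, was at 576, 605 and 595 CPM in F4/80hi and 378, 371 and 414 CPM in F4/80int libraries (log2 fold change 0.61 ± 0.08, adjusted p = 0.000595). *Mmp2* was at 42.5, 62.7 and 55.8 CPM in F4/80hi and 9.49, 3.48 and 5.10 CPM in F4/80int libraries (log2 fold change 3.15 ± 0.33, adjusted p = 0.000129), and *Ltbp1*, a latent TGF-β binding protein, was at 9.32, 22.1 and 9.83 CPM in F4/80hi and 4.24, 1.23 and 1.56 CPM in F4/80int libraries (log2 fold change 2.54 ± 0.51, adjusted p = 0.0041). *Ltbp1* was highest in F4/80hi replicate 2, without which the log2 fold change was 2.02, and it was 3.30 without F4/80int replicate 1. F4/80hi replicate 2 was also the library with the highest sum of fibroblast markers (765 CPM), and the part of fibroblasts in *Mmp2* and *Ltbp1* was not tested. *Thbs1*, thrombospondin 1, which frees TGF-β from its latency peptide, was lower and was at 447, 207 and 317 CPM in F4/80hi and 1702, 1054 and 2793 CPM in F4/80int libraries (log2 fold change -2.52 ± 0.39, adjusted p = 0.00101). *Tgm2*, a transglutaminase, was at 577, 536 and 467 CPM in F4/80hi and 1230.5, 1146 and 1329 CPM in F4/80int libraries (log2 fold change -1.23 ± 0.11, adjusted p = 6.06e-05).

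On the receiving side, *Tgfbr2* (ENSMUSG00000032440.14, chromosome 9, 115913361 to 116004800 on GRCm39) was at 388, 349 and 556 CPM in F4/80hi and 156, 186 and 170.2 CPM in F4/80int libraries (log2 fold change 1.34 ± 0.17, adjusted p = 0.000389), and *Tgfbr1* was at 282, 262 and 342 CPM in F4/80hi and 188, 275 and 219 CPM in F4/80int libraries (log2 fold change 0.38 ± 0.15, adjusted p = 0.0772). The call of *Tgfbr1*, whose ranges overlapped, was lost without F4/80int replicate 1 (adjusted p = 0.25) or 3 (0.184). It was also lost without F4/80hi replicate 1 (0.118) or 3 (0.242). *Pmepa1*, a TGF-β target that feeds back on the pathway, rose and was at 441, 435 and 488 CPM in F4/80hi and 110.1, 99.7 and 101 CPM in F4/80int libraries (log2 fold change 2.13 ± 0.09, adjusted p = 2.03e-06). Other targets fell. *Smad7*, an inhibitor of the pathway, was at 44.9, 42.2 and 32.8 CPM in F4/80hi and 85.9, 77.9 and 82.7 CPM in F4/80int libraries (log2 fold change -1.04 ± 0.12, adjusted p = 0.000242). *Tgfbi*, a matrix protein, was at 2863, 2824 and 2119 CPM in F4/80hi and 3393, 3635 and 3550.2 CPM in F4/80int libraries (log2 fold change -0.44 ± 0.13, adjusted p = 0.0245). No library crossed over for *Pmepa1*, *Smad7* or *Tgfbi*. *Smad3* rose and *Smad4* fell, with log2 fold changes of 0.50 ± 0.16 and -0.48 ± 0.08, and the call of *Smad3* was lost without F4/80hi replicate 3 (adjusted p = 0.101). The group's median of -0.12 was -0.24 without F4/80hi replicate 3.

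Lysosomal genes were higher in F4/80hi MAMs, with 20 of 32 called higher and 5 lower (median log2 fold change 0.48). *Ctsd* and *Ctsb*, cathepsins D and B, had log2 fold changes of 1.65 ± 0.18 and 1.43 ± 0.15. *Galc*, which degrades galactosylceramide, was at 93.2, 80.0 and 100.05 CPM in F4/80hi and 16.5, 20.2 and 20.7 CPM in F4/80int libraries (log2 fold change 2.25 ± 0.13, adjusted p = 5.8e-06). *Lamp1*, a lysosomal membrane protein, was at 1433, 1249 and 1485 CPM in F4/80hi and 816, 774 and 955 CPM in F4/80int libraries (log2 fold change 0.71 ± 0.12, adjusted p = 0.00137). Against these, *Ctsk*, cathepsin K, fell and was at 5.76, 2.34 and 3.70 CPM in F4/80hi and 291, 164 and 229.9 CPM in F4/80int libraries (log2 fold change -5.88 ± 0.34, adjusted p = 7.19e-06), and *Acp5*, tartrate-resistant acid phosphatase, was at 74.3, 67.5 and 65.9 CPM in F4/80hi and 311, 236 and 272 CPM in F4/80int libraries (log2 fold change -1.98 ± 0.12, adjusted p = 7.5e-06). Both are the enzymes osteoclasts are known for.

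Complement genes were mostly higher, with 10 of 17 called higher and 3 lower (median 0.77). The 3 chains of C1q rose together: *C1qa* had a log2 fold change of 2.30 ± 0.13, *C1qb* of 1.90 ± 0.11 and *C1qc* of 2.49 ± 0.12. *C1qc* was at 3038, 2689.9 and 3209 CPM in F4/80hi and 525, 483 and 579 CPM in F4/80int libraries. *C4b*, a gene with a near copy, *C4a*, was at 181, 88.1 and 369.5 CPM in F4/80hi and 22.4, 20.3 and 29.1 CPM in F4/80int libraries (log2 fold change 3.16 ± 0.47, adjusted p = 0.000836), with F4/80hi values that spread over 4-fold and a log2 fold change of 2.49 without F4/80hi replicate 3. *C3ar1* and *C5ar1*, the anaphylatoxin receptors, rose with 1.28 ± 0.20 and 0.84 ± 0.21. *C3*, the central component, fell and was at 194, 127 and 127 CPM in F4/80hi and 362, 367 and 242 CPM in F4/80int libraries (log2 fold change -1.11 ± 0.21, adjusted p = 0.00295). *Itgax*, the CD11c chain of complement receptor 4 and a DC marker, was at 132, 117 and 69.7 CPM in F4/80hi and 952, 943 and 767 CPM in F4/80int libraries (log2 fold change -3.06 ± 0.23, adjusted p = 2.62e-05).

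In lipid handling, 6 of 20 genes were called higher and 8 lower (median -0.17). *Abca1*, the cholesterol exporter, rose with *Apoe* and was at 428, 399 and 694 CPM in F4/80hi and 88.7, 88.7 and 161 CPM in F4/80int libraries (log2 fold change 2.17 ± 0.29, adjusted p = 0.000509), whereas *Abcg1*, its partner exporter, was at 115, 103 and 139.8 CPM in F4/80hi and 166, 179.9 and 205 CPM in F4/80int libraries (log2 fold change -0.63 ± 0.13, adjusted p = 0.00473). *Fabp5* was at 19.0, 19.3 and 16.02 CPM in F4/80hi and 91.0, 58.9 and 62.4 CPM in F4/80int libraries (log2 fold change -1.97 ± 0.17, adjusted p = 5.68e-05), and *Dgat2*, which makes triglycerides, was at 2.12, 2.73 and 1.39 CPM in F4/80hi and 16.5, 18.2 and 18.3 CPM in F4/80int libraries (log2 fold change -3.09 ± 0.23, adjusted p = 2.36e-05). Cholesterol synthesis genes were lower in 13 of 22 cases and higher in 1, *Dhcr7*, whose call was lost without F4/80hi replicate 3 (adjusted p = 0.108). *Srebf2*, the transcription factor of the pathway, was at 163, 185 and 202 CPM in F4/80hi and 430.3, 434 and 335 CPM in F4/80int libraries (log2 fold change -1.12 ± 0.13, adjusted p = 0.000215). The median over the 22 genes was -0.49. Of 16 of these promoters in the table, only 1 (6.25%) held the letters of the sterol regulatory element, searched as above as TCAC, any base and CCAC. Among all tested genes with a promoter the share was 1.19%.

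Ligands of lymphocyte checkpoints and costimulation were lower in 13 of 19 cases and higher in 3 (median -0.83). *Cd274* (ENSMUSG00000016496.8, chromosome 19, 29344529 to 29365495 on GRCm39), the gene of PD-L1, was at 38.9, 21.7 and 24.4 CPM in F4/80hi and 147, 89.3 and 139 CPM in F4/80int libraries (log2 fold change -2.14 ± 0.26, adjusted p = 0.000266). *Pdcd1lg2*, the gene of PD-L2, was at 1.71, 0.602 and 1.01 CPM in F4/80hi and 22.4, 16.7 and 10.1 CPM in F4/80int libraries (log2 fold change -3.92 ± 0.41, adjusted p = 0.00013). *Cd80* was at 8.87, 6.94 and 6.19 CPM in F4/80hi and 50.9, 40.0 and 47.9 CPM in F4/80int libraries (log2 fold change -2.66 ± 0.16, adjusted p = 7.19e-06), and *Cd86* was at 49.6, 38.5 and 49.5 CPM in F4/80hi and 112, 88.8 and 97.1 CPM in F4/80int libraries (log2 fold change -1.11 ± 0.13, adjusted p = 0.000226). These 4 ligands of PD-1, CD28 and CTLA-4 separated the subsets in every library, as did 58.4% of all genes. Mature DCs are known to carry all of them. *Cd276*, B7-H3, rose and was at 52.1, 41.7 and 46.4 CPM in F4/80hi and 12.2, 16.3 and 19.1 CPM in F4/80int libraries (log2 fold change 1.56 ± 0.16, adjusted p = 0.000133). *Siglec1*, the sialic acid-binding receptor of resident-like macrophages, was at 665, 613 and 1053 CPM in F4/80hi and 119.8, 163 and 201 CPM in F4/80int libraries (log2 fold change 2.27 ± 0.25, adjusted p = 0.000175). *Sirpa*, the receptor of the CD47 signal, was at 1209.7, 1086 and 1235 CPM in F4/80hi and 848, 923 and 957 CPM in F4/80int libraries (log2 fold change 0.37 ± 0.10, adjusted p = 0.013), and *Cd47* itself fell and was at 206, 177 and 217 CPM in F4/80hi and 384, 362 and 364 CPM in F4/80int libraries (log2 fold change -0.89 ± 0.10, adjusted p = 0.000168). *Lgals9* and *Vsir* (VISTA) were not called, at log2 fold changes of 0.16 ± 0.08 and 0.24 ± 0.15. *Vsir* was called without F4/80hi replicate 2 (log2 fold change 0.37, adjusted p = 0.0604).

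The classical Fcγ receptors changed little or were not called, and *Clec7a*, *Clec4e* and *Trem1* fell. Of 15 genes, 3 were called higher and 8 lower. *Fcgr1*, *Fcgr2b* and *Fcgr4* were not called, with log2 fold changes of 0.11 ± 0.13, -0.16 ± 0.17 and 0.19 ± 0.22. The calls of the small rises of *Fcer1g* and *Fcgr3* were lost when single libraries were left out. For *Fcer1g* these were F4/80int replicates 1 (adjusted p = 0.119) and 2 (0.113). For *Fcgr3* they were F4/80int replicates 1 (0.142) and 2 (0.171) and F4/80hi replicates 1 (0.137) and 3 (0.168). *Fcgrt*, the neonatal Fc receptor, was at 176, 108 and 179 CPM in F4/80hi and 114, 77.5 and 81.5 CPM in F4/80int libraries (log2 fold change 0.76 ± 0.22, adjusted p = 0.0201), with overlapping ranges. *Clec7a*, the β-glucan receptor Dectin-1, was at 163, 83.3 and 119.7 CPM in F4/80hi and 771, 428 and 469 CPM in F4/80int libraries (log2 fold change -2.19 ± 0.29, adjusted p = 0.000472). *Clec4e*, the receptor Mincle, was at 19.3, 17.6 and 19.9 CPM in F4/80hi and 92.3, 74.5 and 155 CPM in F4/80int libraries (log2 fold change -2.50 ± 0.25, adjusted p = 0.00011), and *Trem1*, an amplifier of inflammation, was at 29.1, 19.5 and 19.2 CPM in F4/80hi and 154, 110.1 and 183 CPM in F4/80int libraries (log2 fold change -2.73 ± 0.23, adjusted p = 4.17e-05).

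Glycolysis and hypoxia genes were lower in F4/80hi MAMs, with 22 of 29 called lower and 1, *Hk3*, higher (median -0.66). *Slc2a1*, the glucose transporter GLUT1, was at 87.5, 112 and 115 CPM in F4/80hi and 274, 253 and 511 CPM in F4/80int libraries (log2 fold change -1.72 ± 0.26, adjusted p = 0.000986). *Pfkp*, a phosphofructokinase, was at 75.6, 65.7 and 60.6 CPM in F4/80hi and 312, 270.2 and 289 CPM in F4/80int libraries (log2 fold change -2.11 ± 0.11, adjusted p = 4.18e-06). *Aldoc*, an aldolase, was at 6.17, 5.17 and 4.54 CPM in F4/80hi and 45.7, 38.3 and 40.6 CPM in F4/80int libraries (log2 fold change -2.98 ± 0.14, adjusted p = 2.74e-06). *Hilpda*, a hypoxia-induced lipid droplet protein, was at 8.96, 7.55 and 6.94 CPM in F4/80hi and 35.9, 15.2 and 79.4 CPM in F4/80int libraries (log2 fold change -2.48 ± 0.52, adjusted p = 0.00473), and *Vegfa*, the angiogenic factor, was at 76.2, 49.5 and 53.7 CPM in F4/80hi and 289, 137 and 394 CPM in F4/80int libraries (log2 fold change -2.19 ± 0.35, adjusted p = 0.00129). F4/80int replicate 3 was the highest library for *Slc2a1*, *Hilpda* and *Vegfa*, and the log2 fold change of *Hilpda* was -1.71 without it. *Gapdh* was at 2775, 3041 and 2495 CPM in F4/80hi and 3239, 2824 and 4242 CPM in F4/80int libraries (log2 fold change -0.31 ± 0.16, adjusted p = 0.145), and was not called, but passed without F4/80int replicate 2 (adjusted p = 0.0671). Of 27 of these promoters in the table, 16 (59.3%) held the letters ACGTG of the hypoxia response element, searched as above, against 25% of all tested genes with a promoter.

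Few nuclear-encoded oxidative phosphorylation genes were called. Of 45 members, 36 were not called, 3 were called higher and 6 lower, shares of 6.67% and 13.3% that are below the 27.8% and 27.1% of all genes, and the median was -0.05. Their log2 fold changes ran from -0.72 to 0.32. *Atp5f1b*, a subunit of the ATP synthase, was at 747, 774 and 656 CPM in F4/80hi and 727, 681 and 674 CPM in F4/80int libraries (log2 fold change 0.06 ± 0.10, adjusted p = 0.612). *Ndufa6*, of complex I, fell most and was at 40.3, 43.3 and 37.3 CPM in F4/80hi and 71.1, 59.2 and 69.3 CPM in F4/80int libraries (log2 fold change -0.72 ± 0.10, adjusted p = 0.000626). *Sdhb* rose slightly (log2 fold change 0.28 ± 0.09), a call lost without F4/80hi replicate 1 (adjusted p = 0.142) or F4/80int replicate 2 (0.105). The number called lower went to between 3 and 9 when single libraries were left out, with 3 without F4/80hi replicate 3, F4/80int replicate 1 or F4/80int replicate 3.

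Arginine and heme enzymes went in several directions. Of 18 genes of arginine, iron and heme handling, 4 were called higher and 7 lower, with a median of -0.19 that was 0.11 without F4/80int replicate 3. *Nos2*, the inducible nitric oxide synthase that competes with arginase, was at 3.69, 2.76 and 5.61 CPM in F4/80hi and 26.6, 12.5 and 77.2 CPM in F4/80int libraries (log2 fold change -3.25 ± 0.64, adjusted p = 0.0035), and was at -2.27 without F4/80int replicate 3. *Ass1*, which regenerates arginine, was at 51.6, 59.7 and 31.2 CPM in F4/80hi and 352, 317 and 312 CPM in F4/80int libraries (log2 fold change -2.78 ± 0.22, adjusted p = 3.11e-05). *Arg1* and *Nos2* were thus both lower in F4/80hi MAMs. *Blvrb*, a biliverdin reductase, rose and was at 65.8, 59.8 and 69.3 CPM in F4/80hi and 25.5, 24.3 and 37.1 CPM in F4/80int libraries (log2 fold change 1.17 ± 0.16, adjusted p = 0.000552). *Hmox1*, heme oxygenase 1, was at 233, 242 and 279 CPM in F4/80hi and 161, 157 and 575 CPM in F4/80int libraries (log2 fold change -0.24 ± 0.46, adjusted p = 0.69), and was not called. Without F4/80int replicate 3, its highest library, *Hmox1* was called higher in F4/80hi MAMs (log2 fold change 0.66, adjusted p = 0.00335).

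Matrix proteases and their inhibitors split by member, with 6 of 18 called higher and 10 lower (median -1.0, and -0.60 without F4/80int replicate 3). *Timp2*, an inhibitor of metalloproteinases, rose and was at 386, 319.6 and 450.2 CPM in F4/80hi and 73.4, 48.2 and 65.6 CPM in F4/80int libraries (log2 fold change 2.63 ± 0.18, adjusted p = 1.71e-05), whereas *Timp1* was at 3.65, 6.73 and 3.60 CPM in F4/80hi and 20.3, 11.1 and 20.6 CPM in F4/80int libraries (log2 fold change -1.89 ± 0.32, adjusted p = 0.00162). *Mmp12*, the macrophage elastase, was at 7.74, 6.34 and 8.43 CPM in F4/80hi and 103, 63.5 and 135 CPM in F4/80int libraries (log2 fold change -3.75 ± 0.28, adjusted p = 2.24e-05), and fell with *Mmp9*. *Mmp8*, the neutrophil collagenase, was at 0.225, 0.390 and 0.778 CPM in F4/80hi and 7.16, 6.39 and 17.5 CPM in F4/80int libraries (log2 fold change -4.41 ± 0.54, adjusted p = 0.000307), and was at -5.02 without F4/80hi replicate 3.

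Growth factors were higher in 10 of 18 cases and lower in 6 (median 0.90). *Igf1*, insulin-like growth factor 1, was at 18.5, 13.8 and 30.5 CPM in F4/80hi and 0.755, 1.43 and 1.99 CPM in F4/80int libraries (log2 fold change 3.93 ± 0.40, adjusted p = 0.000113). *Pdgfc*, a platelet-derived growth factor, was at 12.8, 12.4 and 10.3 CPM in F4/80hi and 2.36, 2.15 and 2.12 CPM in F4/80int libraries (log2 fold change 2.42 ± 0.17, adjusted p = 1.51e-05). *Gdf3*, of the TGF-β superfamily, was at 84.1, 81.8 and 84.0 CPM in F4/80hi and 19.9, 20.9 and 20.5 CPM in F4/80int libraries (log2 fold change 2.03 ± 0.08, adjusted p = 1.6e-06), and *Grn*, progranulin, was at 3034, 2727 and 2942 CPM in F4/80hi and 1109, 1121 and 1248 CPM in F4/80int libraries (log2 fold change 1.32 ± 0.10, adjusted p = 2.41e-05). These 4 did not overlap between subsets, nor did 58.4% of all genes. *Csf1*, the macrophage growth factor, was at 31.0, 54.7 and 32.8 against 32.2, 12.3 and 17.4 CPM with overlapping ranges (adjusted p = 0.0567). Its call was lost without F4/80hi replicate 2 (adjusted p = 0.19) or F4/80int replicate 2 (0.142) or 3 (0.138). Within each subset, *Csf1* ranked as the fibroblast marker sums did (362, 765 and 429 CPM in F4/80hi, 207, 64.9 and 127 CPM in F4/80int). The part of fibroblasts in its difference was not tested. *Igf1* and *Vegfa* count in both this group and the cytokine group, and *Nos2* in both that group and the arginine group.

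Transcription factors listed for macrophages and DCs were mostly lower in F4/80hi MAMs, with 25 of 36 called lower and 3 higher (median -0.94). Not all of them are lineage factors. *Egr1*, *Egr2*, *Atf3* and *Nr4a1* also count in the immediate-early group, and *Nfkb1*, *Stat3* and *Hif1a* are not specific to these cells. *Maf* (ENSMUSG00000055435.7, chromosome 8, 116409632 to 116434579 on GRCm39), a factor of mature tissue macrophages, was among those that rose and was at 650.2, 549 and 762 CPM in F4/80hi and 73.9, 128 and 184 CPM in F4/80int libraries (log2 fold change 2.35 ± 0.30, adjusted p = 0.000371). *Bhlhe41* was at 56.2, 66.0 and 64.8 CPM in F4/80hi and 4.76, 8.71 and 11.3 CPM in F4/80int libraries (log2 fold change 2.93 ± 0.26, adjusted p = 6.12e-05), while its paralog *Bhlhe40* fell and was at 58.6, 45.3 and 36.8 CPM in F4/80hi and 898, 605 and 698 CPM in F4/80int libraries (log2 fold change -3.97 ± 0.22, adjusted p = 5.2e-06). The paralogs thus went in opposite directions with no overlap. *Irf4*, a factor of CD11b+ DCs and of alternatively activated macrophages, was at 7.65, 3.22 and 4.77 CPM in F4/80hi and 78.8, 74.7 and 44.2 CPM in F4/80int libraries (log2 fold change -3.68 ± 0.33, adjusted p = 5.89e-05). *Hif1a*, the hypoxia factor, was at 139, 132 and 147 CPM in F4/80hi and 344, 321 and 357 CPM in F4/80int libraries (log2 fold change -1.29 ± 0.09, adjusted p = 1.26e-05). *Spi1*, the PU.1 gene shared by all these cells, was at 430.2, 403 and 416 CPM in F4/80hi and 606, 608 and 627 CPM in F4/80int libraries (log2 fold change -0.56 ± 0.08, adjusted p = 0.000669). *Irf8*, *Cebpa* and *Zeb2* were not called, with log2 fold changes of -0.11 ± 0.10, 0.09 ± 0.10 and 0.25 ± 0.12. *Zeb2* was called without F4/80hi replicate 2 (log2 fold change 0.35, adjusted p = 0.03).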

How the data were processed

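Libraries of poly(A)-selected RNA from sorted MAMs were prepared with a directional kit and sequenced on an Illumina NovaSeq by the authors. The deposited table held 1 estimated count per gene and library, in whole numbers. The submitters' processing notes name Trim Galore, Salmon 1.10.0, R 4.3.1, DESeq2 1.40.2 and GRCm39, without saying which step each served for this table. Salmon divides reads between similar transcripts, so genes with near copies are uncertain. Gene IDs were matched to symbols and positions (13726 of 13759).

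Here, counts were scaled by TMM and tested with edgeR 4.0.16's quasi-likelihood test (R 4.3.3; F4/80hi against F4/80int, 3 against 3, no covariate, Benjamini-Hochberg adjusted p under 0.1). The low-count filter removed no gene. The lowest row total was 37. Alternatives used DESeq2 1.42.0, limma 3.58.1 voom, other scaling, filters and thresholds, a replicate block and leaving out each library. The test was run on simulated counts in which 200 genes changed. It recovered 67.3% of log2 fold changes of 1 and 94.9% of those of 2, and 10.1% of its calls were false. Far fewer genes changed there than were called here, so the simulation does not check a comparison with this many changes. The threshold for pairing was a correlation of 0.1 between the deviations of libraries with the same replicate number. Replicate 1 exceeded it (0.172) and replicates 2 and 3 did not (-0.0145 and 0.0272), and no block was used.

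Named genes were the sort genes, genes named for these subsets in the study, per direction the 10 widest called changes at a mean of at least 5 CPM without overlap, per list the 2 widest rises and falls and the member with the highest mean, and ligands, receptors and enzymes of the lists. Genes and lists were chosen with earlier results of these data known. Some genes of the lists are not reported here by name. Promoters came from RefSeq on GRCm38.p6. Depth limits genes under the floor of 3 counts per library (0.113 CPM in F4/80hi and 0.11 CPM in F4/80int), a limit that covers counting error only.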

Additional observations from a re-analysis of the deposited data

How the results depend on the processing

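Of 229 genes described above, 193 were called, and 177 of these kept the call under all 13 alternatives, while 16 lost it under at least 1. The alternative without a low-count filter had to give the same calls, since the filter removed no gene. A further 13 gained a call under at least 1 alternative in the same direction. *Hmox1*, which was not called, changed direction and was called higher without F4/80int replicate 3 (log2 fold change 0.66, against as low as -0.55 without another library). In place of 7555 called genes (3030 with a 2-fold change), DESeq2 called 7200 (2969), limma-voom 7576 (3038), DESeq2 size factors in edgeR 7516 (3023), a minimum mean of 1 CPM 6886 (2371) and an adjusted p under 0.05 6470 (2896). Leaving out single libraries gave 6550 to 7234 (2875 to 3075). With the replicate number as a block, edgeR called 7512 (3032). Deviations of libraries with the same number correlated at 0.172, -0.0145 and 0.0272, and F4/80hi replicates 2 and 3 correlated better with another number. *Spp1* lost its call under the block (adjusted p = 0.118), DESeq2 (0.181) and limma-voom (0.137), and *Gpnmb* under the block (0.169) and limma-voom (0.156). *Gzmb* lost its call under the block (0.128) and limma-voom (0.246), *Il2rb* under the block (0.103), *Gzma* (0.1) under limma-voom, *Csf1* under DESeq2 (0.103), and *Il10* under limma-voom (0.139), DESeq2 size factors (0.102) and the 1 CPM minimum (0.101). The block called *Ccl3* (0.00241), *Cxcl9* (0.0861), *Fos* (0.0932), *Lyz2* (0.0874) and *Zeb2* (0.0811), and DESeq2 called *Ccl3* (0.043), *B2m* (0.0793) and *Gapdh* (0.0681). T cell markers called lower were 6 under DESeq2, 5 under the block and 1 at an adjusted p under 0.05, and B cell markers called higher 4 under the block and 1 at an adjusted p under 0.05. The median of checkpoint and costimulatory ligands was -0.77 at a minimum mean of 1 CPM, and oxidative phosphorylation genes called lower were 3 at an adjusted p under 0.05. Leaving out single libraries gave medians of 1.83 to 2.07 for macrophage maturation, -0.24 to -0.0826 for TGF-β reception, -3.01 to -2.52 for MHC class II, -0.72 to -0.56 for interferon response, -0.90 to -0.73 for checkpoint ligands, -1.20 to -0.60 for matrix proteases and -0.32 to 0.11 for arginine, iron and heme handling, and 3 to 9 oxidative phosphorylation genes called lower. The cause of these shifts was not tested. With 3 libraries a group, an exact permutation test of a single value cannot go below p = 0.1.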

Other observations

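Hemoglobin RNA differed between replicates more than between subsets. *Hbb-bs*, an adult β-globin gene, was at 0.901, 0.602 and 16.9 CPM in the F4/80hi and 1.87, 0.751 and 38.4 CPM in the F4/80int libraries of replicates 1, 2 and 3, and *Hba-a1*, an α-globin gene with a near copy that may share its reads, at 0.405, 0.709 and 10.8 CPM and 1.05, 0.615 and 25.3 CPM. Replicate 3 was the highest library of both subsets for each of these genes. Whether libraries of the same replicate number shared a source was not tested. The 4 erythroid genes measured summed to 1.49 to 42.6 CPM in F4/80hi and 2.08 to 100.1 CPM in F4/80int libraries. In edgeR's quasi-likelihood test their adjusted p values ran from 0.416 to 0.605.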
